A study of Mus musculus with 12 samples.

Results

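Matrix metalloproteinases are zinc-dependent enzymes that cut collagens, gelatin, proteoglycans and other proteins of the extracellular matrix, and the TIMPs are the small secreted proteins that bind their active sites and block them. The 10 genes described here are 6 metalloproteinases (Mmp2, Mmp3, Mmp9, Mmp13, Mmp14 and Mmp19) and all 4 Timp genes (Timp1 to Timp4), taken by gene symbol from 53379 Ensembl genes with counts. Each of the 10 symbols matched 1 gene, and all 10 passed the filter on low counts that left 16554 genes for testing. In fat, adipocytes sit in a basement membrane and a collagen mesh that have to be remodelled when the cells grow, shrink or are replaced, and both the proteases and their inhibitors are made there by progenitors, macrophages, vessel cells and adipocytes. Most of these proteases are made as inactive precursors. MMP14 is anchored in the cell membrane, where it activates MMP2 with the help of TIMP2.

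The tissue was perigonadal white fat of C57BL/6 mice aged 9 weeks, taken at zeitgeber time 9, and RNA was sequenced from 12 libraries in 4 groups of 3. The groups were wild type given saline (wt saline), wild type given CL (wt CL), adipose-tissue-specific Cdk7 knockout given saline (ko saline) and the same knockout given CL (ko CL), with injections for 7 days in every group. The drug is named in the labels as CL and nothing more, an abbreviation used in this field for an agonist of the beta-3 adrenergic receptor, and the promoter that drives the deletion is not given in the sources used here. Cdk7 encodes a kinase of the transcription factor TFIIH. Each library pooled RNA of 2 mice, 250 ng from each, so that p-values measure the spread between pools, and 6 mice stood behind each group.

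Libraries held 21892817 to 27985019 gene counts. Cdk7 was at 11 to 23.6 CPM (read counts relative to library size, on the usual CPM scale, with TMM scaling between libraries) in the 6 ko libraries and at 29.3 to 35.4 in the 6 wt libraries, with no overlap between the genotypes named in the titles. Within ko it was at 11.4 ± 0.36 CPM under saline and 20.4 ± 2.9 under CL (SD, n = 3 each), a called rise of 0.84 ± 0.096 on the log2 scale (edgeR adjusted p = 1.01e-05). A genotype field of the labels contradicts 6 of the 12 titles and was not used. All 7 adipocyte markers were present in every library, the lowest at 169 CPM, but their sum differed between groups without overlap. It was highest with CL in wt fat (25100 to 27100 CPM), followed by wt fat under saline (20700 to 22800). Knockout fat had less, at 14400 to 15300 CPM when given saline and only 6910 to 10500 when given CL. The libraries also differed in other cell types' markers. The summed level of 8 macrophage markers was 7280 to 10100 CPM in ko CL, 768 to 908 in wt CL and 1370 to 1520 under saline in both genotypes. The 7 markers of motile ciliated epithelium summed to between 87.1 and 128 CPM for ko saline, to 47.3 for wt saline 1, and to 3.92 to 14.4 in the other 8 libraries. In bulk tissue, fewer cells of a type and less RNA per cell cannot be told apart.

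The promoters of 4 genes are printed because these genes contrast in the results. Mmp13 and Mmp3 lie in one cluster of metalloproteinase genes on chromosome 9 and share an AP-1 motif and a TATA box close to the start, and of the pair Mmp13 rose with CL in ko fat while Mmp3 was not called. Timp1 and Timp4 encode inhibitors with opposite responses there. RefSeq promoters of build GRCm38.p6 were matched for 7 of the 10 genes, and not for Mmp2, Mmp9 and Mmp19. The 250 bases before the transcription start are shown, 5′ to 3′ on the gene's strand. Capitals mark matches to TGANTCA (the AP-1 motif), TGACGTCA (the cAMP response element) and TATAAA (the TATA box), searched on both strands.
Mmp13, chr9:7272264-7272513, plus strand: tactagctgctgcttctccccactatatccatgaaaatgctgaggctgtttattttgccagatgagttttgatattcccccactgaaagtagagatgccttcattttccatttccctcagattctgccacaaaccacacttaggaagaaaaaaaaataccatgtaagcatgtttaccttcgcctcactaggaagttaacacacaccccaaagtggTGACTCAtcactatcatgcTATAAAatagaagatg
Mmp3, chr9:7445572-7445821, plus strand: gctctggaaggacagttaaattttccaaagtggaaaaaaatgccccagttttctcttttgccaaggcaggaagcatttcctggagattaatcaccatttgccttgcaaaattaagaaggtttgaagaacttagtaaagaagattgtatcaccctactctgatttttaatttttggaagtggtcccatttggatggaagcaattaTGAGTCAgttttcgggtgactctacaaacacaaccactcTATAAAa
Timp1, chrX:20869916-20870165, plus strand: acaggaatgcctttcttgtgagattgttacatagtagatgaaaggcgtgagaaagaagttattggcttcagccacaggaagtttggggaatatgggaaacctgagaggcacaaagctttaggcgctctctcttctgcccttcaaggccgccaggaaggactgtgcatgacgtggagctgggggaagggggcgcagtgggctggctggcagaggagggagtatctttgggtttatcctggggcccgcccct
Timp4, chr6:115252206-115252455, minus strand: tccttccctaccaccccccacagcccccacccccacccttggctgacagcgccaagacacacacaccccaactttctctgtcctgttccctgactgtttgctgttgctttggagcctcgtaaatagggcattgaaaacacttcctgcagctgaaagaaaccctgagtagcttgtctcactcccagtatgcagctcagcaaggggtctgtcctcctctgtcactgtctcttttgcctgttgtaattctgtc
In Mmp13 the AP-1 match reads TGACTCA, 35 to 29 bases before the start, and the TATA match lies 16 to 11 bases before it. In Mmp3 the AP-1 match reads TGAGTCA, 46 to 40 bases before the start, and the TATA match lies 7 to 2 bases before it. None of the 3 motifs was found in this window of Mmp14, Timp1, Timp2, Timp3 or Timp4. Of 32851 promoter windows of the same length, 6.75% held the AP-1 motif, 12.4% the TATA box and 1.55% the cAMP response element. The pair of AP-1 motif and TATA box is not particular to Mmp13 and Mmp3. In the same cluster it was also found for Mmp1a, Mmp1b, Mmp10, Mmp20 and a promoter of Mmp7, though not for every promoter of Mmp7. Mmp8 and Mmp27 held neither motif. No promoter of Mmp12 held the TATA box, and not all of them held the AP-1 motif. Timp2 and Timp3 had G or C at 68.0% and 65.6% of bases, Timp1 and Timp4 at 54.4% and 53.6%, and Mmp13 and Mmp3 at 40.4% and 37.6%, against a median of 52.4% over all windows.

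In saline-treated fat the family's messages were mostly those of the inhibitors. Levels of different genes are compared here as CPM per kilobase of exon sequence, with the exons of all annotated transcripts of a gene merged. Ranks of genes close in level depend on this choice of length. In wt saline, Timp2 stood highest at 122 ± 9.8, followed by Timp4 at 55.1 ± 11, Timp3 at 44.7 ± 4.2 and Timp1 at 5.98 ± 2.2 (SD, n = 3 each). Among the proteases Mmp19 was at 25.0 ± 0.35, Mmp2 at 22.7 ± 2.1, Mmp14 at 15.5 ± 1.9 and Mmp9 at 6.57 ± 1.2 CPM per kilobase, while Mmp3 and Mmp13 were at 1.96 ± 0.46 and 0.313 ± 0.087 (SD, n = 3 each). The libraries of Timp4 and Timp3 overlapped. Those of Mmp19 and Mmp2 did not, and Mmp19 lay above Mmp2 in each of the 3.

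Under saline, the knockout of Cdk7 came with no called change in the family. None of the 10 genes passed edgeR's quasi-likelihood test between ko and wt under saline (adjusted p at most 0.05 over all genes is called), where 7.99% of all tested genes were called higher and 6.45% lower. The smallest unadjusted p-values were 0.0302 for Mmp19 and 0.0322 for Timp4, the only 2 of the 10 under 0.05. DESeq2 called none either, but over 12 alternatives for each gene Mmp19 was called in 2 and Timp3 in 1. The ko saline libraries held Mmp19 at 99.7 to 117 CPM and the wt saline libraries at 86.9 to 89.3, so the groups did not overlap, as for 37.7% of all tested genes, with a log2 fold change of 0.29 ± 0.12 (SE, adjusted p = 0.122). Timp4 differed by -0.45 ± 0.19 (adjusted p = 0.128), with overlapping groups. The remaining 8 genes had log2 fold changes of -0.23 to 0.35. Standard errors ran up to 0.38 for Mmp13, so that small differences of the low genes were not detectable at this number of libraries.

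**Figure D1:**
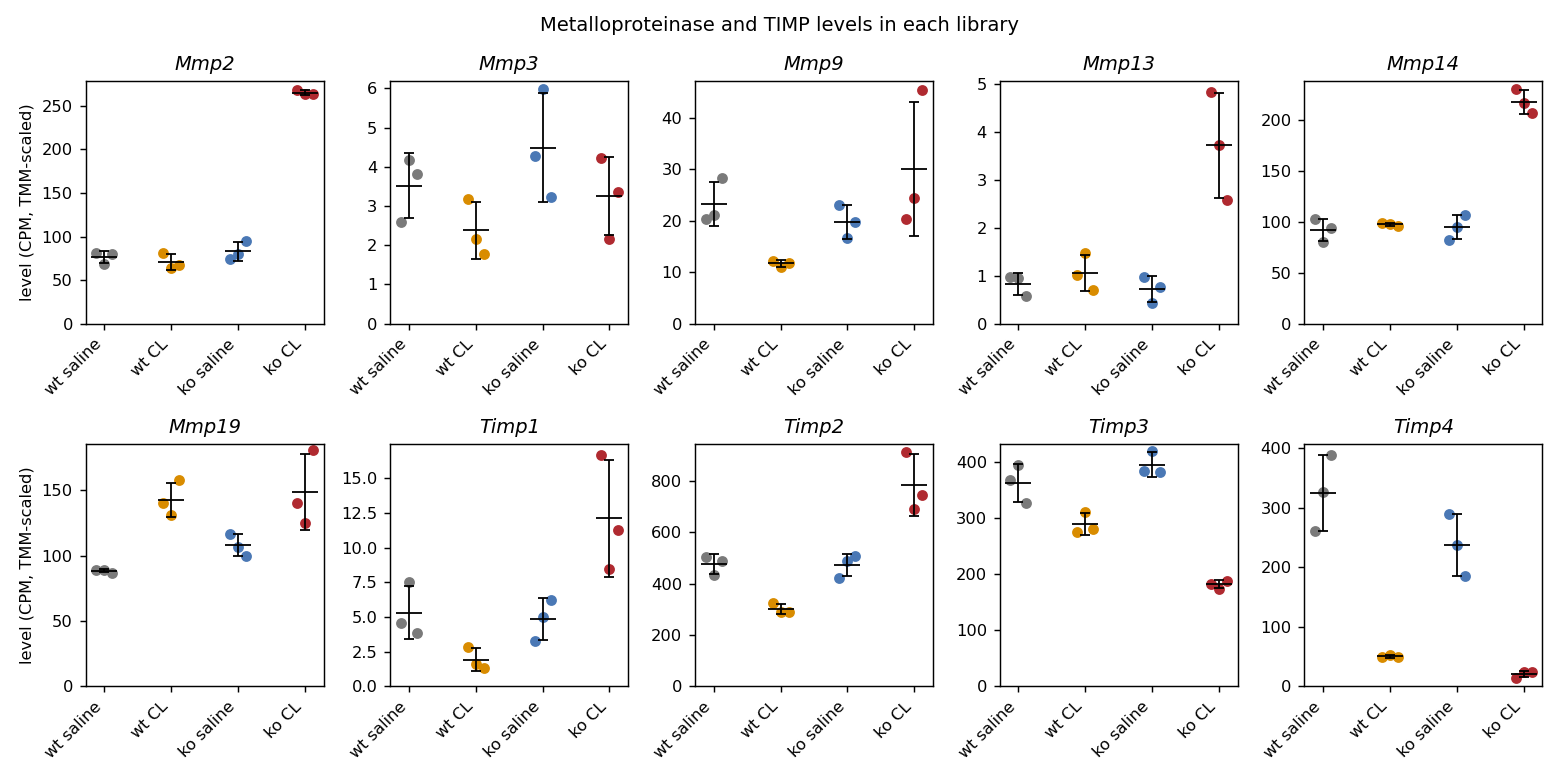
Level of each gene (y axis, TMM-scaled CPM, linear from 0) in the 3 libraries of each of the 4 groups (x axis), with points for libraries, a horizontal line for the mean and whiskers for the SD. Mmp2, Mmp13, Mmp14, Timp1 and Timp2 are highest in all 3 ko CL libraries, and Timp3 and Timp4 are lowest there.

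With CL in wt fat, all 4 inhibitor genes fell, and of the proteases Mmp9 fell and Mmp19 rose. That made 5 of the 10 genes lower and 1 higher, where 17.1% and 19.6% of all tested genes were called lower and higher. Libraries of the 2 wt groups did not overlap for these 6 genes, as for 51.0% of all tested genes. The median log2 fold change of the 10 was -0.45, against -0.01 over all genes. In ko fat CL was followed by higher Mmp2, Mmp13, Mmp14, Mmp19, Timp1 and Timp2 and by lower Timp3 and Timp4. There 6 of the 10 genes were called higher and 2 lower, against 27.2% and 27.5% of all tested genes. The 2 ko groups did not overlap for these 8, as for 60.9% of all tested genes, and the median was 0.66 against -0.01. The 2 responses were compared with each other by the interaction term of the same model. It was called for 8 of the 10 genes, 6 with a more positive and 2 with a more negative response in ko, where 21.8% and 23.6% of all tested genes were.

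**Figure D2:**
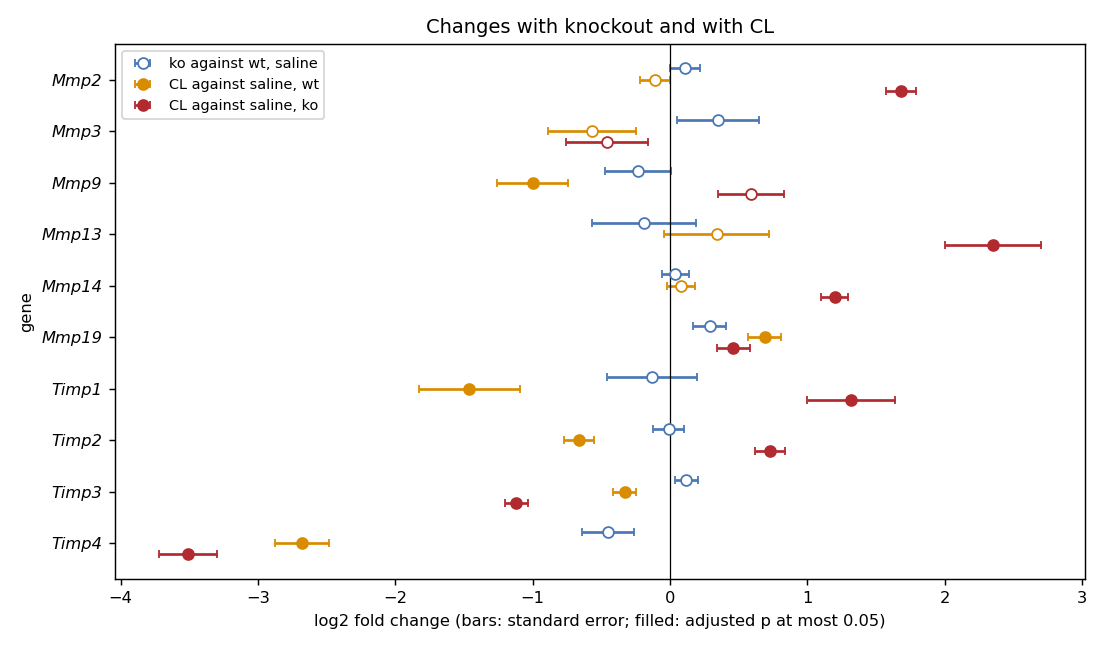
Log2 fold change (x axis, bars are standard errors) of each gene (y axis) for ko against wt under saline in blue, CL against saline in wt in orange and CL against saline in ko in red, with filled points for adjusted p of at most 0.05. Timp1 and Timp2 lie on opposite sides of 0 in the 2 genotypes, while Timp3 and Timp4 lie below 0 in both.

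Timp4 encodes the TIMP with the most restricted tissue range, known for expression in heart and fat (ENSMUSG00000030317, GRCm38 chromosome 6, 115241892 to 115252205, minus strand). The wt libraries held it at 261, 326 and 389 CPM under saline and at 48.7, 53.2 and 50.1 under CL. In ko it was at 290, 237 and 186 CPM under saline and at 14.7, 24.1 and 23.9 under CL. Every CL library lay below every saline library, and every ko CL library lay below every wt CL library. Timp4 fell by 2.68 on the log2 scale in wt (SE 0.20, adjusted p = 1.91e-06) and by 3.51 in ko (SE 0.21, adjusted p = 3.64e-08), the largest changes of the 10 genes in both genotypes. Under CL, ko was lower than wt by a log2 fold change of -1.28 ± 0.21 (adjusted p = 0.000145). The response in ko was the more negative by -0.83 ± 0.28 (adjusted p = 0.027), and this call was lost with library size as the only scaling (-0.60) and without wt saline 1, wt CL 2, ko saline 1 or ko CL 1 (-0.79 to -0.64). Over all 17 alternatives its adjusted p ran from 0.00582 to 0.0904, and 12 were called. With CL in ko 6 of the 7 adipocyte markers fell as well, and in wt 1 of 7 fell and 1 rose. Between ko CL and wt CL all 7 were lower in ko, with a median log2 fold change of -1.32, beside -1.28 for Timp4. Under saline the markers were lower in ko by a median of -0.71 (4 of 7 called), beside -0.45 for Timp4, not called. For the difference between responses the median was -0.58 (4 of 7 called), beside -0.83 for Timp4. The part of adipocytes in these results was not tested.

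Timp3 encodes the inhibitor that binds to the matrix itself and also blocks ADAM17, the protease that sheds tumour necrosis factor (ENSMUSG00000020044, chromosome 10, 86300372 to 86349506, plus strand). The wt libraries held it at 368, 396 and 328 CPM under saline and 276, 311 and 281 under CL, groups that did not overlap. The ko libraries held it at 384, 421 and 383 CPM under saline and 183, 174 and 189 under CL, below all other libraries. Timp3 fell by 0.33 on the log2 scale in wt (SE 0.082, adjusted p = 0.00685), or by 0.64 with library size as the only scaling, and fell by 1.12 in ko (SE 0.083, adjusted p = 1.94e-07). The responses differed by -0.79 ± 0.12 (adjusted p = 0.000129). The 6 endothelial markers summed to 829 to 878 CPM for ko saline and 507 to 665 for ko CL and 5 of 6 fell with CL in ko. Also in ko, 4 of 6 smooth muscle and pericyte markers fell and 2 rose, and 6 of 7 adipocyte markers fell. Rgs5 was at 294 CPM under saline and 145 under CL. The 2 that rose were Pdgfrb, at 97.2 and 121 CPM, and Cspg4, at 41.1 and 64.7. In wt 4 of 6 endothelial markers were higher with CL, while Timp3 fell. Their part in the ko result was not tested. Adam17 itself rose in ko by 1.08 ± 0.092 on the log2 scale (adjusted p = 7.22e-07; saline 68.3 ± 3.9 and CL 144 ± 21 CPM, SD, n = 3 each), and was at 0.12 ± 0.094 in wt (adjusted p = 0.319).

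Timp2 encodes the inhibitor that also takes part in MMP2 activation at the cell surface (ENSMUSG00000017466, chromosome 11, 118301069 to 118355740, minus strand). In wt it was at 505, 433 and 489 CPM under saline and 325, 289 and 290 under CL. In ko it was at 423, 487 and 506 CPM under saline and 912, 691 and 745 under CL, so that CL libraries lay below saline in wt and above saline in ko. Timp2 fell by 0.66 on the log2 scale in wt (SE 0.11, adjusted p = 0.000539), rose by 0.73 ± 0.11 in ko (adjusted p = 0.000112), and the responses differed by 1.39 ± 0.16 (adjusted p = 1.68e-05).

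Timp1 encodes the inducible inhibitor of the family, known to rise in injured and inflamed tissue (ENSMUSG00000001131, chromosome X, 20870166 to 20874735, plus strand). It was low, with 26 to 481 counts in a library. Its level was 4.59, 7.49 and 3.84 CPM in wt given saline, 2.85, 1.63 and 1.32 in wt given CL, 3.30, 5.02 and 6.19 in ko saline and 16.7, 8.42 and 11.3 in ko CL. The ko CL libraries were above all others and the wt CL libraries below all others. Timp1 fell by 1.46 in wt (SE 0.37, adjusted p = 0.00835) and rose by 1.32 ± 0.32 in ko (adjusted p = 0.0038), a difference of 2.78 ± 0.49 (adjusted p = 0.000554). Under CL its level was 6.29-fold higher in ko than in wt (log2 fold change 2.65 ± 0.37, adjusted p = 3.93e-05). Timp1 and Timp2 were the 2 of the 10 genes called lower in wt and higher in ko, which 4.83% of all tested genes were.

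For both Mmp2 and Mmp14, ko CL lay above the other 3 groups, which overlapped. Mmp2 encodes gelatinase A, which degrades denatured collagen and basement membrane collagen (ENSMUSG00000031740, chromosome 8, 92827291 to 92853420, plus strand). Its level was 81.2, 68.2 and 80.3 CPM in wt given saline, 81.4, 63.4 and 67.8 in wt given CL, 73.8, 80.3 and 94.6 in ko saline and 268, 264 and 263 in ko CL. The spread of the ko CL libraries was 1.15% (SD over mean). Mmp2 rose 3.20-fold with CL in ko (log2 fold change 1.68 ± 0.11, adjusted p = 5.94e-08), was at -0.11 ± 0.11 in wt (adjusted p = 0.445) and the responses differed by 1.79 ± 0.15 (adjusted p = 1.51e-06). Mmp14 encodes the membrane-bound collagenase that activates MMP2 (ENSMUSG00000000957, chromosome 14, 54431612 to 54445364, plus strand). It was at 103, 80.2 and 94.2 CPM in wt given saline, 99.1, 97.7 and 96.0 in wt given CL, 82.6, 95.2 and 107 in ko saline and 231, 217 and 207 in ko CL. Here too the lowest ko CL library was above every other library. Mmp14 rose 2.30-fold in ko (1.20 ± 0.10, adjusted p = 6.26e-07), was at 0.08 ± 0.10 in wt (adjusted p = 0.578, and -0.24 with library size alone), and the responses differed by 1.12 ± 0.14 (adjusted p = 4.29e-05). The ratio of Mmp2 to Mmp14, both per kilobase, was 2.15 ± 0.095 in ko CL against 1.54 ± 0.046 in ko saline (SD, n = 3 each). These ratios did not overlap between the 2 groups, and no test was run on them.

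Markers of 2 cell types known to make these proteins were set beside them. All 8 macrophage markers rose with CL in ko and all 8 fell in wt (median log2 fold changes 2.25 and -0.73). Timp1 and Timp2 were called in these same directions. Mmp2, Mmp13 and Mmp14 rose in ko and were not called in wt, and Mmp9 fell in wt and was not called in ko. Of 9 fibroblast and progenitor markers, 3 rose and 2 fell in ko (median 0.15), near the shares of all tested genes, and 7 fell in wt (median -0.59). The summed fibroblast markers were at 3270 to 3910 CPM in ko CL, 2530 to 2870 in ko saline and 1700 to 1950 in wt CL. The part of either cell type in the levels of Mmp2, Mmp9, Mmp13, Mmp14, Timp1 and Timp2 was not tested.

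Mmp9 encodes gelatinase B, a protease stored by neutrophils and also made by macrophages (ENSMUSG00000017737, chromosome 2, 164940780 to 164955850, plus strand). The wt libraries held it at 20.4, 21.2 and 28.3 CPM under saline and 12.2, 11 and 11.8 under CL, without overlap. In ko it was at 23.1, 16.6 and 19.8 CPM under saline and 20.4, 24.4 and 45.4 under CL, which overlap, with ko CL 3 far above the other ko libraries. Mmp9 fell by 1.0 in wt (SE 0.26, adjusted p = 0.00854). In ko the log2 fold change was 0.59 ± 0.24 (adjusted p = 0.0517), just outside the threshold, and over 12 alternatives the adjusted p ran from 0.0104 to 0.46, with 6 called. Without ko CL 3 the value was 0.15. The responses differed by 1.59 ± 0.35 (adjusted p = 0.00255), and by 1.15 without ko CL 3, still called. Summed neutrophil markers were between 53.2 and 59.5 CPM for ko CL and between 9.42 and 14.3 for the other groups, and 4 of the 6 that could be tested rose with CL in ko. Most of the sum was 1 gene, Csf3r, at 44.4 ± 3.3 CPM in ko CL and 6.57 ± 0.37 in ko saline (SD, n = 3 each). S100a8, an abundant neutrophil message, was at 3.81 ± 0.50 and 3.12 ± 0.85 CPM in these groups and was not called (adjusted p = 0.313). In the same order Retnlg was at 4.55 ± 0.94 and 1.5 ± 0.57 CPM, and S100a9 at 2.23 ± 0.57 and 0.584 ± 0.51. Elane was at 0.338 ± 0.29 and 0.486 ± 0.25 CPM (SD, n = 3 each). Mpo, of neutrophil precursors, was at 0.381 to 0.517 CPM in ko CL and at most 0.112 in every other library. Ly6g, which defines neutrophils, had 6 counts over all 12 libraries. The part of neutrophils in the Mmp9 level was not tested.

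Mmp13 encodes the main interstitial collagenase of rodents (ENSMUSG00000050578, chromosome 9, 7272514 to 7283331, plus strand), whose promoter is printed above. It was the lowest of the 10 genes, with 12 to 140 counts in a library. Its level was 0.979, 0.961 and 0.569 CPM in wt given saline, 1.01, 1.47 and 0.713 in wt given CL, 0.979, 0.439 and 0.766 in ko saline and 4.85, 3.74 and 2.59 in ko CL. All ko CL libraries lay above all others, whose groups overlapped. Mmp13 rose 5.10-fold with CL in ko (2.35 ± 0.35, adjusted p = 0.000109), was at 0.34 ± 0.38 in wt (adjusted p = 0.514), and the responses differed by 2.01 ± 0.52 (adjusted p = 0.00695).

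Mmp3 encodes stromelysin 1, which cuts many matrix proteins and activates other metalloproteinases (ENSMUSG00000043613, chromosome 9, 7445822 to 7455975, plus strand). It carries the same pair of promoter motifs as Mmp13 and some other genes of the cluster. Its libraries lay between 2.6 and 4.16 CPM in wt saline, between 1.78 and 3.19 in wt CL, between 3.22 and 5.97 in ko saline, and between 2.17 and 4.23 in ko CL. Every neighbouring pair of groups overlapped. No comparison of Mmp3 was called, with -0.57 ± 0.32 for CL in wt (adjusted p = 0.177) and -0.46 ± 0.30 in ko (adjusted p = 0.206).

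Mmp19 encodes a basement membrane protease that is expressed in many tissues (ENSMUSG00000025355, chromosome 10, 128790910 to 128800824, plus strand). Of the 6 proteases it was the one called higher with CL in both genotypes. Under CL its levels were 131 to 158 CPM in wt and 125 to 181 in ko, against the saline levels given above, and CL libraries lay above saline libraries in each genotype. The rise was 0.69 ± 0.12 in wt (adjusted p = 0.000573) and 0.46 ± 0.12 in ko (adjusted p = 0.00449). It was 0.38 in wt with library size as the only scaling and 0.27 in ko without ko CL 3, both still called. A difference between these responses was not called (-0.23 ± 0.16, adjusted p = 0.28), and the 2 CL groups differed by 0.06 ± 0.12 (adjusted p = 0.704). On the opposite strand 2 genes overlap exons of Mmp19, Tmem198b with 2110 counts over all libraries and Gm47093 with 111, against 36283 for Mmp19.

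The direct comparison of ko with wt under CL called 6 of the 10 genes higher and 2 lower, where 27.6% and 29.3% of all tested genes were called. The median of the 10 was 1.26, against 0.003 over all genes. For the same 8 genes the libraries of ko CL and wt CL did not overlap, which held for 63.6% of all tested genes. Besides Timp1 and Timp4, given above, Mmp2 was 3.74-fold, Mmp13 3.52-fold, Timp2 2.6-fold, Mmp9 2.56-fold and Mmp14 2.24-fold higher in ko CL than in wt CL (adjusted p of 1.75e-08 to 0.000682). Timp3 was lower by a log2 fold change of -0.67 ± 0.082 (adjusted p = 1.41e-05). Mmp3 (0.45 ± 0.32, adjusted p = 0.24) and Mmp19 were not called. In the same comparison 8 of 8 macrophage markers (median log2 fold change 2.89) and 8 of 9 fibroblast and progenitor markers (0.79) were higher in ko. All 7 adipocyte markers (-1.32) and all 6 endothelial markers (-1.11) were lower. Their part in these differences was not tested. This comparison shares its ko CL and wt CL libraries with the tests of the CL responses and is no independent evidence for them.

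The summed levels changed in different ways in the 2 genotypes. The 4 Timp genes together were at 228 ± 7.2 CPM per kilobase for wt under saline and 124 ± 4.9 with CL, while the 6 proteases were at 72.1 ± 3.9 and 82.9 ± 4.9 (SD, n = 3 each). In ko the Timp sum was 216 ± 7.1 under saline and 240 ± 34 under CL, with overlapping libraries (209 to 223 and 212 to 278), and the protease sum was 79.4 ± 2.2 and 169 ± 10. The ratio of the Timp sum to the protease sum was 3.03 to 3.30 in wt saline, 1.39 to 1.60 in wt CL, 2.63 to 2.85 in ko saline and between 1.29 and 1.65 in ko CL. It was thus lower with CL in both genotypes, and the 2 CL groups overlapped. With Mmp12 added to the protease sum they did not, at 1.38 to 1.57 in wt CL and 0.892 to 1.05 in ko CL. These sums describe messenger RNA, with each gene divided by its merged exon length (888 bases for Timp1, 5894 for Timp4 and 7237 for Mmp12). Merged exons can be longer than a transcript, so genes are not weighted equally per molecule. The sums hold no measure of protein or enzyme activity, and no test was run on them.

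**Figure D3:**
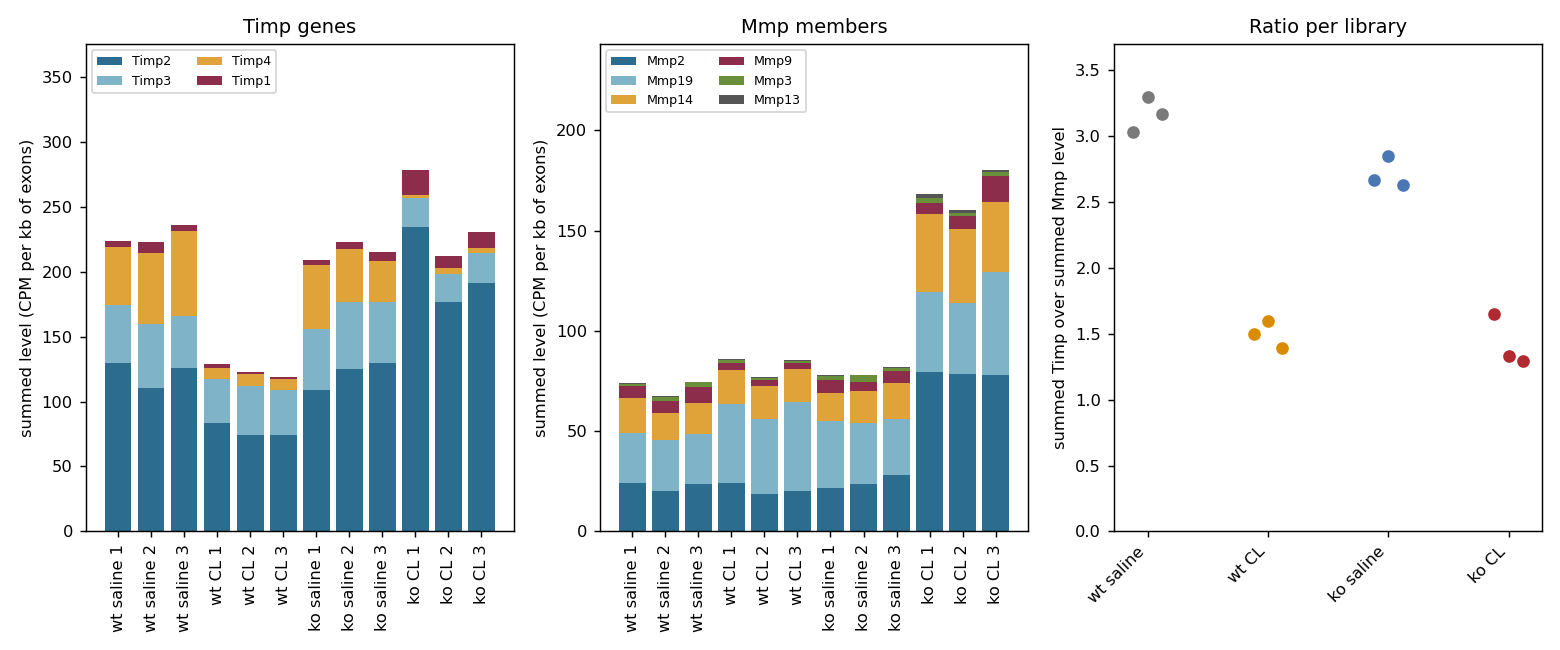
Stacked levels (y axis, CPM per kilobase of exons) of the 4 Timp genes (left) and the 6 Mmp genes (middle) in each of the 12 libraries (x axis), and the ratio of the sums by group (right). The Timp sum is lowest in the wt CL libraries (119 to 129), the Mmp sum is highest in the ko CL libraries (160 to 180), and the ratio is at most 1.65 in every CL library.

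Within the inhibitor messages the share of Timp4 was lower with CL in both genotypes. Timp2 made up 53.6% ± 4.0 of the Timp sum in wt saline, 62.5% ± 2.3 in wt CL, 56.2% ± 4.1 in ko saline and, the highest, 83.5% ± 0.77 in ko CL (SD, n = 3 each). Timp4 made up 24.1% ± 4.1, 6.96% ± 0.48, 18.8% ± 4.5 and 1.53% ± 0.55 in the same order. Timp3 made up 19.7% ± 2.4, 28.8% ± 2.4, 22.6% ± 0.70 and 9.39% ± 1.1. With CL in wt the shares of Timp2 and Timp3 were thus both higher, although both genes fell, and in ko the share of Timp2 was higher and that of Timp3 lower. Among the proteases Mmp19 took the largest share in wt CL, 48.8% ± 3.1, and Mmp2 in ko CL, 46.6% ± 2.9.

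Of 17 other metalloproteinase genes, 10 passed the filter on low counts. With CL in ko 4 of the 10 rose and 2 fell (median log2 fold change 0.09), near the 27.2% and 27.5% of all tested genes. In wt 1 rose and 3 fell (median -0.34), where 19.6% and 17.1% of all tested genes did. The median over all genes was -0.01 in each genotype. Mmp12, macrophage elastase, lies next to Mmp13 in the chromosome 9 cluster and rose in ko by 5.27 ± 0.45 on the log2 scale (adjusted p = 6.76e-07), with 14.1 ± 4.0 CPM under saline and 545 ± 170 under CL (SD, n = 3 each) and wt at -0.27 ± 0.46 (adjusted p = 0.679). Adding it changed the protease sum of ko CL from 169 ± 10 to 244 ± 31 CPM per kilobase and the Timp to Mmp ratio from 1.42 ± 0.20 to 0.986 ± 0.083, while the ratio of wt CL went from 1.5 ± 0.10 to 1.47 ± 0.095. Mmp27, from the same cluster, rose from 1.05 ± 0.29 to 6.99 ± 0.44 CPM (2.73 ± 0.22, adjusted p = 5.02e-07). Mmp11, stromelysin 3, rose by 0.55 ± 0.099 (adjusted p = 0.000483), and Mmp15, a membrane-bound relative of Mmp14, fell by 0.54 in ko (SE 0.11, adjusted p = 0.000972) and rose by 0.60 ± 0.11 in wt (adjusted p = 0.000941). Mmp23 went the other way, with a fall of 0.74 in wt (SE 0.15, adjusted p = 0.00234) and a rise of 0.54 ± 0.15 in ko (adjusted p = 0.00721). In wt Mmp7 was called lower too (in 6 of 12 alternatives), but was at 12.5 CPM in wt saline 1 and at most 0.641 in the other wt libraries. In ko Mmp7 fell by 4.55 (SE 1.1, adjusted p = 0.00584), from 29.1 to 40.5 CPM under saline to 0 to 2.81 under CL. The markers of motile ciliated epithelium were also highest in ko saline and wt saline 1. The part of that epithelium in the Mmp7 level was not tested. Mmp20 and Mmp1a had 0 counts in every library, and Mmp1b, Mmp10 and Mmp8, also in the cluster, had 4, 20 and 58 over all 12.

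The related ADAM and ADAMTS proteases, which shed surface proteins and cut proteoglycans, had 10 of 21 higher and 5 lower with CL in ko, beside 27.2% and 27.5% of all tested genes. In wt 5 were higher and 10 lower, beside 19.6% and 17.1%. The medians were 0.24 and -0.28, against -0.01 over all genes. Adam8, a sheddase of leukocytes, rose 24.3-fold in ko (4.6 ± 0.23, adjusted p = 7.88e-09) and fell by 0.67 in wt (SE 0.24, adjusted p = 0.041, called in 7 of 12 alternatives). Adam19 rose by 1.44 ± 0.077 and Adamts15, a protease of proteoglycans, by 1.66 ± 0.12 in ko (adjusted p = 1.34e-08 and 2e-07). Adamts5, an aggrecanase, fell in both genotypes, by 1.63 in wt (SE 0.13, adjusted p = 2.79e-06) and by 1.26 in ko (SE 0.13, adjusted p = 3.59e-06). Adam12, a membrane-anchored relative, rose in both, by 1.73 ± 0.16 and 1.75 ± 0.16 (adjusted p = 7.22e-06 and 1.26e-06).

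**Figure D4:**
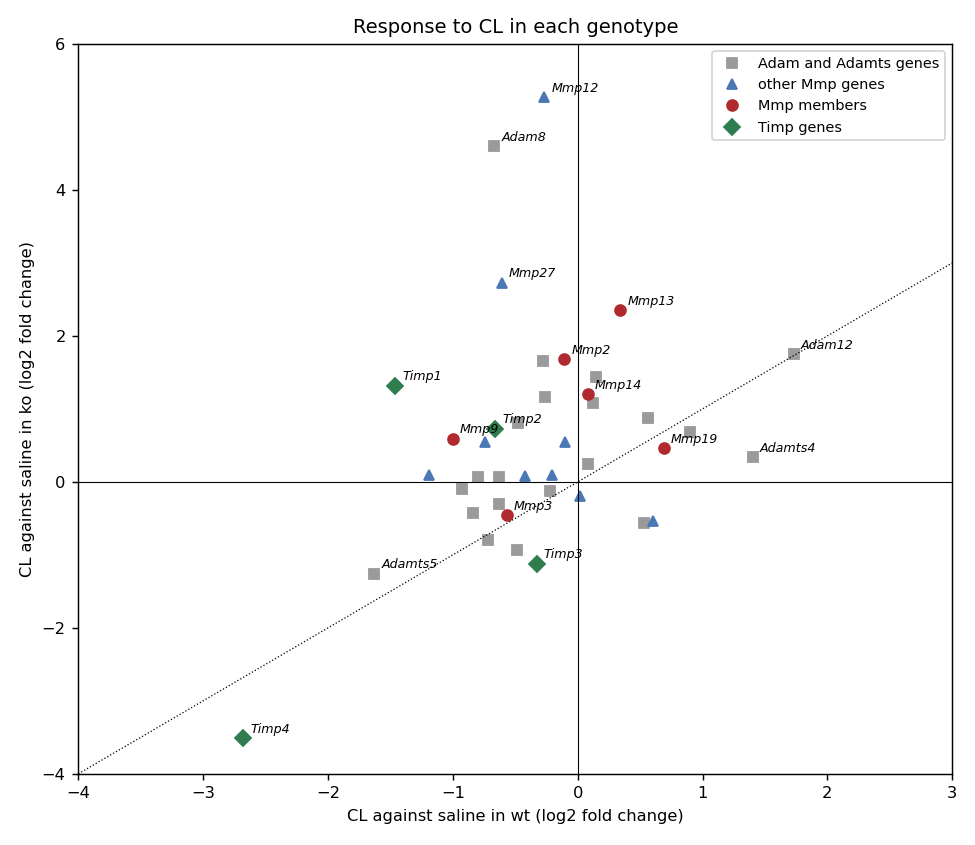
Log2 fold change with CL in wt (x axis) and in ko (y axis) of the Mmp members (red), Timp genes (green), other tested Mmp genes (blue) and Adam and Adamts genes (grey), with the line of equal response dotted. Mmp7 is not drawn, because it had 0 counts in all wt CL libraries. Mmp12 and Adam8 lie far above the line, and Adam12 lies on it.

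Genes that activate or restrain the metalloproteinases outside the TIMP family had 5 of 16 tested members higher and 6 lower with CL in ko, near the 27.2% and 27.5% of all tested genes. In wt 1 was higher and 8 lower, beside 19.6% and 17.1%. The medians were -0.29 and -0.57, against -0.01 over all genes. The urokinase system, which generates plasmin, was among them. Plaur, the urokinase receptor, rose by 1.69 ± 0.14 in ko and fell by 0.72 in wt (SE 0.15, adjusted p = 4.66e-07 and 0.00221), and Plau, urokinase, rose by 1.07 ± 0.15 in ko (adjusted p = 5e-05). Ctsk, the collagen-cutting cathepsin K, rose 9.93-fold in ko (3.31 ± 0.15, adjusted p = 4.25e-09). Serpine2, a protease inhibitor, fell by 0.95 in ko and 0.91 in wt (SE 0.12 each, adjusted p = 1.84e-05 and 9.94e-05). Reck, a membrane-bound inhibitor of metalloproteinases, fell by 0.39 in wt (SE 0.083, adjusted p = 0.00257) and was at -0.07 ± 0.081 in ko (adjusted p = 0.463).

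The genes of their substrates had opposite majorities in the 2 genotypes. Of 24 collagen and matrix genes, 14 fell and 0 rose with CL in wt, and 13 rose and 3 fell in ko (medians -0.40 and 0.35, against -0.01 over all genes). Over all tested genes 17.1% fell and 19.6% rose in wt, and 27.2% rose and 27.5% fell in ko. Fn1, fibronectin, fell by 1.17 in wt (SE 0.13, adjusted p = 3.11e-05) and rose by 0.41 ± 0.13 in ko (adjusted p = 0.0172, called in 7 of 12 alternatives). Postn, periostin, rose by 1.55 ± 0.10 and Lum, lumican, by 1.41 ± 0.092 in ko (adjusted p = 7.18e-08 and 6.71e-08). Of 12 cytokines and AP-1 subunits that could be tested, 6 rose and 1 fell with CL in ko and 3 fell and 0 rose in wt (medians 0.93 and -0.38), beside the same shares of all tested genes. The 4 named here were chosen after their values were seen. Tgfb1 rose by 1.65 ± 0.13, Tnf by 1.82 ± 0.29 and Fos, a subunit of AP-1, by 2.01 ± 0.33 in ko (adjusted p = 2.97e-07, 0.000177 and 0.000223), while Jun fell by 1.18 in wt (SE 0.18, adjusted p = 0.000325).

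Patterns over the 12 libraries were compared with 10829 protein-coding genes of at least 5 CPM on average, by Pearson's r of log2 CPM. The libraries share 4 groups, so the points are not independent and r is a description. Timp4 was most like Fkbp9 (r = 0.991), Gstm1 (0.990) and Fzd4 (0.987), and Timp3 most like Gjc1 (0.985), Pxdn (0.980) and Sptan1 (0.979). Timp2 was most like Pacs2 (0.987), Ifi204 (0.986) and Pdgfra (0.985), and Timp1 most like Ptgfrn (0.985), Tmed9 (0.981) and Ski (0.972). For Mmp2 these were Mcoln2 (0.991), Slc37a2 (0.991) and Adamts15 (0.990), and for Mmp14 they were Evl (0.982), Ap1b1 (0.981) and Mmp2 itself (0.981). Mmp3, at 0.858 with Dcbld2, and Mmp9, at 0.861 with Siglech, had no gene as close. Within the family r was 0.94 between Timp1 and Timp2 and 0.91 between Timp3 and Timp4, and -0.91 between Timp3 and Mmp14.

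Of the inhibitor genes, 3 lie inside synapsin genes on the opposite strand. Timp1 lies within Syn1, Timp3 within Syn3 and Timp4 within Syn2, and exons overlap for the last 2 pairs. With CL in ko, Syn1 rose by 2.94 ± 0.33 (adjusted p = 9.31e-06), Syn3 fell by 1.26 (SE 0.19, adjusted p = 0.000122) and Syn2 fell by 0.59 (SE 0.23, adjusted p = 0.0415, overlapping groups, called in 6 of 12 alternatives), each in the direction of the Timp gene inside it. In wt the 3 synapsin genes were not called (adjusted p = 0.1 to 0.854), where all 3 Timp genes fell. Syn3 counts were 0.525% to 0.942% of Timp3 counts in every library, while Syn1 counts were 9.89% to 23.1% of Timp1 counts outside ko CL and 33.9% to 56.9% in it. Syn2 counts were 1.97% to 7.04% of Timp4 counts under saline and 14.6% to 49.3% under CL. Whether reads of one strand were counted for the other was not tested.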

How the data were processed

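The deposited files hold raw counts of reads per Ensembl gene, made by the authors with STAR and HTSeq on GRCm38 per the submitters' processing notes. The sources used here give neither versions nor an annotation release, and the file names state reverse-strand counting. The 5 HTSeq summary lines (12.5% to 17.2% of reads) were left out. Of 53379 identifiers, 53274 matched GENCODE M21, which gave symbols, coordinates and exon lengths. Groups were taken from the titles.

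Counts were tested in R 4.3.3 with edgeR 4.0.16 (quasi-likelihood, TMM, filterByExpr with a minimum count of 10, 16554 genes, 1 model of 12 libraries and 4 group means, 8 residual degrees of freedom). P-values were adjusted over all tested genes by Benjamini-Hochberg and called at 0.05. Each standard error was derived from F as the size of the log2 fold change divided by √F. Alternatives were DESeq2 1.42.0, RLE or library size scaling, no filter, 2-group fits, a replicate block and leaving out each library.

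The 10 genes and the gene lists were chosen with earlier results of these data known. Named genes of a list are among the 4 with the smallest adjusted p in a comparison and a mean of at least 1 CPM, and not all 4 are always named. This rule did not cover the cytokine and AP-1 genes, the cell type markers or the chromosomal neighbours of the 10 genes. The 3 most similar genes were ranked with a prior count of 2. Within groups, 12 pairs of libraries differed by a chi-square per degree of freedom of 7.44 to 60.3, so none repeats another. Replicate numbers did not pair the libraries.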

Additional observations from a re-analysis of the deposited data

Results flagged for a closer look

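The response to CL differed between ko and wt by the interaction term of edgeR's quasi-likelihood test for 8 of the 10 genes. The difference in log2 fold change, ko minus wt, was 2.78 for Timp1, 2.01 for Mmp13, 1.79 for Mmp2, 1.59 for Mmp9, 1.39 for Timp2 and 1.12 for Mmp14, all more positive in ko. It was -0.79 for Timp3 and -0.83 for Timp4, more negative in ko. Mmp13 rests on 12 to 140 counts in a library. Macrophage markers differed in the same direction as the first 6 genes in 8 of 8 cases, and fibroblast and progenitor markers in 6 of 9. Over all tested genes 21.8% were called in that direction. In the direction of Timp3 and Timp4 were 6 of 6 endothelial and 4 of 7 adipocyte markers, beside 23.6% of all tested genes. The part of these cell types in the differences was not tested.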

How the results depend on the processing

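Of the 50 tests of single genes, 30 were called, and over 400 alternative values for these, 395 stayed called in the same direction, 5 lost the call and 0 reversed. All 5 were the Timp4 difference between responses. Library size as the only scaling shifts the median of all genes, by -0.327 for CL in wt, 0.148 for ko under saline and 0.387 for ko under CL, and moved the counts of all genes. Genes called were then 1329 higher and 8048 lower for CL in wt (3249 and 2836 with TMM), 3733 and 506 for ko under saline (1323 and 1068), and 8667 and 2237 for ko under CL (4561 and 4847). For the difference of responses 2267 genes were lower (3903 with TMM). Under the same scaling 2 of the 10 genes were called higher in ko under saline and 1 lower for the difference. A fit of only the saline groups called 1, Mmp19. Leaving out 1 library at a time gave 525 to 1364 genes higher and 557 to 891 lower for ko under saline, and 1 to 3 of the 10 genes lower for the difference. Reversals were limited to values not called: with library size alone, Mmp14 for CL in wt (-0.24), and under saline Timp1 (0.03) and Timp2 (0.14). With 1 library left out, Mmp14 ran from -0.01 to 0.15 for CL in wt. Under saline Mmp13 ran from -0.45 to 0.06, Mmp14 from -0.06 to 0.13, Timp1 from -0.35 to 0.20 and Timp2 from -0.07 to 0.06. Mmp19 under CL ran from -0.13 to 0.16, and the difference for Mmp3 from -0.15 to 0.37.

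Libraries of the same replicate number did not deviate together (r of -0.355 to 0.176 over 18 pairs, 2 over 0.1), and 2 of 12 libraries correlated best with their own number. The replicate block gave 3060 genes higher and 2649 lower for CL in wt, and 4306 and 4391 in ko. With it 7 of the 10 genes were higher with CL in ko, Mmp9 being added (0.55, adjusted p = 0.0413), and the other counts of the 10 genes were the same. Mmp13, Mmp3 and Timp1 are limited by counts as low as 12, 35 and 26 in a library.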
